A study of Mus musculus with 18 samples.

Results

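The 10 genes described here encode the enzymes that build triglyceride: Gpam, Agpat1, Agpat2, Agpat3, Lpin1, Lpin2, Lpin3, Dgat1, Dgat2 and Mogat1. They were chosen by gene symbol, and all 10 were present among the 45151 symbols that the files of every sample had in common. RNA-seq libraries came from 3 fat depots of male wild type C57BL/6J mice that were 16 weeks old and ate regular chow, with 6 libraries per depot. Inguinal white fat (iWAT) and epididymal white fat (eWAT) had been digested with collagenase, and the floating mature adipocytes were sequenced. Brown adipose tissue (BAT) was sequenced as whole tissue, so depot and preparation cannot be told apart in any comparison with BAT. The mice carried no transgene and received no drug. The comparisons ask how the transcripts of this pathway are distributed among the 3 depots.

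Triglyceride is the storage lipid of adipocytes. In the glycerol 3-phosphate pathway, a glycerol 3-phosphate acyltransferase adds the first fatty acid, an acylglycerol phosphate acyltransferase adds the next one, a lipin removes the phosphate, and a diacylglycerol acyltransferase attaches the last fatty acid. Monoacylglycerol acyltransferases offer a side entry that makes diacylglycerol directly from monoacylglycerol. White adipocytes store triglyceride in a single large droplet, whereas brown adipocytes hold many small droplets and burn the fatty acids for heat.

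Each value is an RPKM, a read count scaled by the length of the annotated row and by the total of its library, which was 22929576 to 34512470 reads. The iWAT and BAT files list genes with all exons merged, whereas the eWAT files list single transcripts, of which the most-read one was used. No member had an identical row in both kinds of file, and the merged row was between 1.0 (Dgat2) and 3.86 (Lpin2) times as long as the eWAT transcript. Counting reads on a transcript lowers eWAT relative to the other depots, and dividing merged rows by a longer length lowers the other depots relative to eWAT. The comparison of iWAT with BAT is free of this difference. The eWAT comparisons were therefore also made on RPKM and with row length as an offset.

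Markers separated BAT from the white depots as labeled, while Adipoq and Ucp1 do not check the inguinal against the epididymal label. Adipoq, which encodes adiponectin, ranged in RPKM from 1485 to 2147 in iWAT, 868 to 2351 in eWAT and 258 to 394 in BAT libraries, and Ucp1, the uncoupling protein of brown fat, was at 969 to 1509 in BAT against at most 5.76 in iWAT and 0.551 in eWAT. Some libraries stood apart. In eWAT replicate 15 the summed RPKM of 7 macrophage markers was 2570 against 164 to 595 in the other 5 eWAT libraries, and that of 5 adipocyte markers was 2718 against 5596 to 7240. Epididymis markers reached 81.3 in eWAT replicate 14 and 66.9 in replicate 15, and skeletal muscle markers reached 1340 in BAT replicate 12. In bulk libraries such as these, fewer cells of a type and less RNA per cell cannot be told apart. The tests on reads were also run without these 3 libraries. The comparisons on RPKM and with row length as an offset were run with all libraries only.

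The pathway's last step had the most abundant transcript. Dgat2, a diacylglycerol acyltransferase of the endoplasmic reticulum, was the highest of the 10 in every library, with RPKM values from 681 to 1134 in iWAT libraries, from 618 to 1311 in those of eWAT and from 412 to 556 in those of BAT. Agpat2, the enzyme that is defective in a human congenital lipodystrophy, was next in all 18 libraries, at 76.0 to 101 (iWAT), 104 to 218 (eWAT) and 177 to 268 (BAT). Below these came a middle group with overlapping ranges. In BAT the ranges of Dgat1, Agpat3, Lpin1 and Gpam, at mean RPKM values of 39.0 to 44.2, overlapped from each to its neighbor. In iWAT the order ran Dgat1 (50.5 ± 7.97, SD, n = 6), Lpin1 (34.4 ± 5.15), Agpat3 (20.8 ± 1.32), Gpam (20.2 ± 4.86), Agpat1 (15.9 ± 0.729) and Mogat1 (15.4 ± 1.67), and the last 4 overlapped from each to its neighbor. Lpin2 and Lpin3 were lowest, with means of 0.566 (Lpin2) and 1.15 (Lpin3) in iWAT, of 3.23 and 0.959 for eWAT, and of 0.523 and 0.580 for BAT. The Lpin2 values in iWAT and BAT rest on a merged row of 21798 bases. The same reads divided by the 5641 bases of the eWAT transcript would give 2.19 and 2.02. These include any reads of the merged row that lie outside that transcript, so they can overstate its level.

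**Figure D1:**
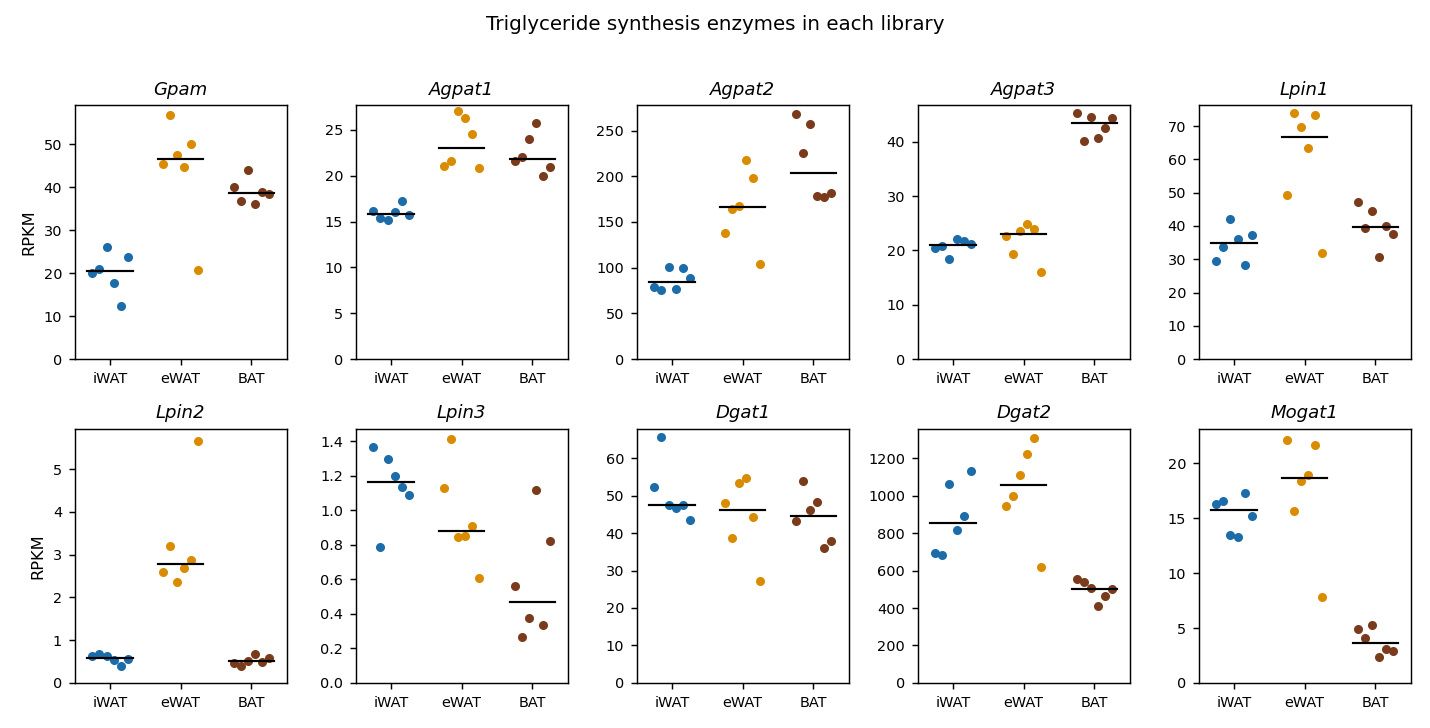
RPKM of each triglyceride synthesis enzyme (vertical axes, linear from 0, a separate scale per gene) in the 6 iWAT, 6 eWAT and 6 BAT libraries (horizontal axes). Points are libraries and lines are medians. Mogat1 and Dgat2 are above all BAT libraries in both white depots, Agpat3 is below all BAT libraries in both, and the lowest eWAT point is replicate 15 for every gene other than Lpin2, where it is the highest.

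Between iWAT and BAT, members differed in both directions. Gpam and all 3 Agpat members were 1.7- to 3.0-fold lower in iWAT. Mogat1 was 3.35-fold and Dgat2 1.47-fold higher, whereas no difference was called for Dgat1. In all, 8 of the 10 members had an adjusted p under the threshold of 0.05 (edgeR quasi-likelihood test on reads, Benjamini-Hochberg over 19733 genes), 3 higher and 5 lower in iWAT. Over all genes tested 67.6% passed, 34% higher and 33.6% lower, so that a call in itself says little about a member. The median log2 fold change of the members was −0.32, and that of all genes was 0.01. When a change of more than 2-fold was tested, Agpat2, Agpat3 and Mogat1 passed, 3 of 10 against 22.4% of all genes. The RPKM ranges of the depots did not overlap for 6 members, against 47.7% of all genes. Beside these differences, the summed RPKM of 5 adipocyte markers (Adipoq, Plin1, Lep, Cfd and Retn) was 7476 to 10579 in iWAT and 592 to 1142 in BAT. Plin1 alone was at 451 to 569 and 215 to 258, a smaller difference than that of the sum. Brown adipocyte markers were at 78.6 to 122 in iWAT and 2720 to 3408 in BAT. The sum of 4 mesothelium markers was 3.64 to 4.59 and 11.1 to 13.4, and the ranges of the other marker lists overlapped. The part of these cell types in the differences was not tested.

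Gpam, the mitochondrial glycerol 3-phosphate acyltransferase that starts the pathway, is encoded on chr19:55141758-55201824 (mm9, minus strand). Its RPKM was 12.2, 20.6 and 26.1 (lowest, median and highest) in iWAT and 36.2, 38.7 and 44.0 in BAT. Every iWAT library was below every BAT library, and the log2 fold change was −1.23 (SE 0.15, edgeR adjusted p = 5.94e-06). The lowest value belonged to iWAT replicate 14, which also had the highest summed RPKM of 6 endothelial markers among the iWAT libraries, 148 against a median of 46.1. The part of endothelial cells in the Gpam value was not tested. Leaving out each library in turn gave log2 fold changes of −1.31 to −1.11.

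The 3 acylglycerol phosphate acyltransferases add the fatty acid that turns lysophosphatidic acid into phosphatidic acid, Agpat1 and Agpat2 being the classical enzymes and Agpat3 having other lysophospholipids as substrates as well. Agpat2 (chr2:26447991-26459937, minus strand) had RPKM values of 76.0, 83.9 and 101 in iWAT and 177, 204 and 268 in BAT, and the ranges did not overlap. It had the largest decrease of the members, with a log2 fold change of −1.59 (SE 0.15, edgeR adjusted p = 4.22e-07). Agpat3 (chr10:77731923-77815234, minus strand) was at 18.4, 21.0 and 22.1 in iWAT against 40.2, 43.4 and 45.2 in BAT, the smallest coefficient of variation of any member in BAT (4.91%). Its log2 fold change was −1.31 (SE 0.09, edgeR adjusted p = 1.54e-08). Agpat1 (chr17:34742806-34750728, plus strand) was at 15.1, 15.9 and 17.2 in iWAT and 19.98, 21.8 and 25.7 in BAT, again without overlap, with a log2 fold change of −0.76 (SE 0.08, edgeR adjusted p = 8.61e-07). The decrease was therefore common to these 3 genes but not equal in size. The ratio of Agpat2 to Agpat1 within a library does not depend on its scaling, and it was 4.77, 5.30 and 6.66 in iWAT and 6.92, 9.55 and 12.4 in BAT. No iWAT library reached a BAT library, and the difference in log2 ratio was −0.81 (exact permutation test, two-sided, p = 0.0021645, the smallest that 6 against 6 libraries allow, adjusted p = 0.00487 over 9 ratio tests).

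Within BAT, Agpat2 was not uniform. Its RPKM was 268, 226 and 257 in BAT replicates 6, 7 and 8 and 178, 177 and 181 in replicates 11, 12 and 13. Mogat1 was at 4.87, 4.10 and 5.29 in the first 3 and 2.31, 3.12 and 2.92 in the others, and Elovl3, a fatty acid elongase of brown fat, was at 36.1, 23.2 and 51.4 against 7.27, 8.24 and 10.8. The replicate number comes from the sample titles, which do not say whether it marks a cohort, and the split was noticed in the values, so no test is given.

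The lipins differed among themselves. Lpin1, the main lipin of adipose tissue, was at 28.3, 34.8 and 42.0 in iWAT and 30.7, 39.6 and 47.3 in BAT, and the ranges overlapped. Its log2 fold change of −0.50 (SE 0.13, edgeR adjusted p = 0.00439) was not called without TMM scaling (−0.21, adjusted p = 0.127) or by limma on RPKM (−0.21, adjusted p = 0.116). With the replicate number as a block the call was also lost (−0.29, edgeR adjusted p = 0.0768). Lpin2 was at 0.396, 0.590 and 0.668 in iWAT and 0.402, 0.5004 and 0.682 in BAT, from 274 to 454 reads per library, and was not called (log2 fold change −0.15, SE 0.14, edgeR adjusted p = 0.355). Lpin3 had few reads, 78 to 161 in iWAT and 35 to 132 in BAT. At RPKM values of 0.789, 1.17 and 1.37 against 0.265, 0.470 and 1.12 it passed with a log2 fold change of 0.74 (SE 0.29, edgeR adjusted p = 0.0364), but it lost the call without iWAT replicate 7, 12 or 13 (0.68, 0.73 and 0.73) and without BAT replicate 6, 7, 8 or 12 (0.72, 0.56, 0.63 and 0.60). The Lpin3 call was also lost with the replicate number as a block (0.82, edgeR adjusted p = 0.159) and with a filter on mean RPKM (0.67, edgeR adjusted p = 0.0577).

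The 2 diacylglycerol acyltransferases catalyze the same final reaction but are unrelated in sequence, and their transcripts differed in how they varied with depot. Dgat2 (chr7:106302168-106331227, minus strand) was at 681, 857 and 1134 in iWAT and 412, 504 and 556 in BAT. All iWAT libraries were above all BAT libraries, with a log2 fold change of 0.55 (SE 0.14, edgeR adjusted p = 0.00307) that kept its call without TMM and when any 1 library was left out. Dgat1 (chr15:76332445-76342381, minus strand) was at 43.5, 47.5 and 65.8 in iWAT and 36.1, 44.6 and 54.0 in BAT. These ranges overlapped, and the log2 fold change was −0.07 (SE 0.12, edgeR adjusted p = 0.633), with the sign turning to 0.19 without TMM. The difference between the 2 genes was tested as a ratio. Dgat2 exceeded Dgat1 10.4-, 18.2- and 26.1-fold (lowest, median and highest) in iWAT and 8.54-, 11.9- and 13.3-fold in BAT, a difference in log2 ratio of 0.62 (exact permutation test, two-sided, p = 0.0238, adjusted p = 0.0357). The ranges overlapped, as iWAT replicate 11, which had the highest Dgat1 and the lowest Dgat2 of its depot, lay inside the BAT range.

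**Figure D2:**
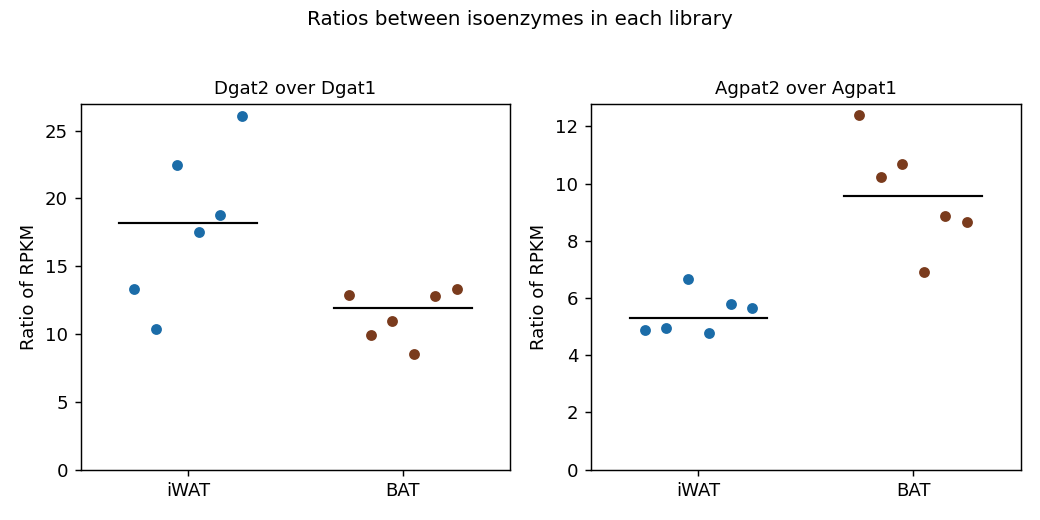
RPKM of Dgat2 divided by Dgat1 (left) and of Agpat2 divided by Agpat1 (right) in each iWAT and BAT library, on linear axes from 0. Points are libraries and lines are medians, which were 18.2 and 11.9 for Dgat2 over Dgat1 and 5.30 and 9.55 for Agpat2 over Agpat1.

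Mogat1 (chr1:78507566-78534748, plus strand), the monoacylglycerol acyltransferase, showed the largest difference of the members. It was at 13.3, 15.8 and 17.3 in iWAT and 2.31, 3.61 and 5.29 in BAT, with no overlap. The log2 fold change was 1.75 (SE 0.21, edgeR adjusted p = 4.11e-06), and it stayed between 1.59 and 1.86 when each library was left out. In the GENCODE annotation 108 exonic bases of Mogat1 are shared with BC035947 on the opposite strand, and the strand setting of the read counting is not given in the sources used here. BC035947 had RPKM medians of 3.41 (iWAT), 2.79 (eWAT) and 0.785 (BAT), so it was higher in the same depots as Mogat1, and its part in the Mogat1 reads was not tested. Agpat2 shares 64 bases with Egfl7 and Agpat1 shares 101 bases with Egfl8, both on the opposite strand and with medians of at most 9.67 and 0.553.

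The DNA just upstream of the start sites is given for the members that passed the 2-fold test. Its relation to the differences between depots was not tested. The 250 bases before the annotated start are shown for all 3 of these genes, from RefSeq (GRCm38.p6), 5′ to 3′ on the strand of the gene, with every match to the motifs searched in capitals. Agpat2 lies at chr2:26604418-26604667 (minus strand), Agpat3 at chr10:78351701-78351950 (minus strand) and Mogat1 at chr1:78510810-78511059 (plus strand).
Agpat2: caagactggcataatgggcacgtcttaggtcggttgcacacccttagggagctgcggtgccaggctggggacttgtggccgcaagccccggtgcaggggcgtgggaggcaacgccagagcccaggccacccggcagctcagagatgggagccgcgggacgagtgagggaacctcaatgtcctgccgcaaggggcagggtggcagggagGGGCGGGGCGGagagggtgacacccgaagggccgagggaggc
Agpat3: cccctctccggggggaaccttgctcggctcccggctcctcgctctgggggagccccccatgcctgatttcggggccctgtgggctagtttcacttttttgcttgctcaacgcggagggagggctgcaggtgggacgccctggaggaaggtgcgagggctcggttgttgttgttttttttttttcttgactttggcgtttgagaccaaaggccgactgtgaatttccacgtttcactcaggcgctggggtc
Mogat1: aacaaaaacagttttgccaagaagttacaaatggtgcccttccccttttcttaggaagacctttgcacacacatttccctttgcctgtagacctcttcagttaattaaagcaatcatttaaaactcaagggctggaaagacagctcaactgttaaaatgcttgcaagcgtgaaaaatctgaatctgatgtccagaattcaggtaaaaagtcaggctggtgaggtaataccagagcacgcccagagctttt
The Agpat2 window was the richest in G and C of the 3, at 69.2%, with 2 GC boxes (GGGCGG) that begin 42 and 37 bases before the start and overlap by their shared end base. The Agpat3 window had 59.6% and the Mogat1 window 41.2%, against a median of 52.4% over 32851 windows, and neither held a match. The motifs searched, on both strands, were the GC box GGGCGG, the CCAAT box CCAAT, the TATA box TATAAA and the E-box CACGTG. They occurred in 32.7%, 33.8%, 12.4% and 6.02% of all windows. RefSeq windows were found for 8 members, 13 windows in all, and Dgat1 and Dgat2 had no entry. A GC box was present in 7 of the 13 windows, CCAAT in 3, the E-box in 1 (Lpin2), and TATAAA in 0.

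In the comparison of eWAT with BAT, 3 members were called in the same direction on all 3 scales, namely reads, RPKM and reads with row length as an offset. These were Agpat2 and Agpat3, both lower in eWAT adipocytes, and Mogat1, which was higher. Over all 18383 symbols tested 47.4% met this rule, 29.8% higher and 17.6% lower. RPKM ranges did not overlap for 4 members, 3 higher and 1 lower in eWAT. Over all symbols this held for 61.9%, 50.4% higher and 11.5% lower, so a lack of overlap in itself says little about a member. Agpat3 was at 16.0, 23.1 and 24.9 RPKM in eWAT and 40.2, 43.4 and 45.2 in BAT, without overlap. Its log2 fold changes were −1.66 on reads (SE 0.11, edgeR adjusted p = 1.19e-10), −0.99 by limma on RPKM (adjusted p = 9.77e-09) and −1.71 with the length offset (adjusted p = 1.59e-10). When the 17 transcript rows of Agpat3 were summed in eWAT, which counts reads more than once, the log2 fold change was −0.15 and the call was lost (adjusted p = 0.219). The lack of overlap on RPKM is that of the most-read row. Mean RPKM in eWAT ran from 18.2 to 49.6 over the transcript rows of Agpat3, and the mean in BAT was 42.9. Mogat1 was at 7.82, 18.7 and 22.1 in eWAT against 2.31, 3.61 and 5.29 in BAT, and no eWAT library was within the BAT range. Its log2 fold changes were 1.46 on reads (SE 0.24, edgeR adjusted p = 2.96e-05), 2.16 by limma (adjusted p = 4.23e-08) and 1.46 with the length offset (adjusted p = 2.86e-05). Agpat2 was at 104, 166 and 218 in eWAT against 177, 204 and 268 in BAT, where the ranges overlapped on RPKM. Its log2 fold changes were −2.03 on reads (edgeR adjusted p = 6.45e-09), −0.40 by limma (adjusted p = 0.0316) and −1.12 with the offset (adjusted p = 1.18e-05). With summed transcripts Agpat2 was at −1.35 (adjusted p = 7.81e-07) and Mogat1 at 2.08 (adjusted p = 3.25e-07). Mean RPKM in eWAT ran from 24.4 to 213 over the transcript rows of Agpat2, and the mean in BAT was 215. The lowest Agpat2 value in eWAT was in replicate 15, and limma was not run without that library. Without the 3 libraries that stood apart, the log2 fold changes on reads were −2.04 (Agpat2), −1.63 (Agpat3) and 1.49 (Mogat1), all called. The summed RPKM of 7 macrophage markers was 164 to 2570 in eWAT and 22.8 to 55.8 in BAT. Adipocyte markers were at 2718 to 7240 and 592 to 1142, and markers of fat cell precursors at 11.3 to 25.6 and 4.48 to 7.21. Mesothelium markers were at 14.2 to 29.4 and 11.1 to 13.4, and brown adipocyte markers at 12.3 to 24.9 and 2720 to 3408. The other marker lists overlapped. These sums rest on transcript rows in eWAT and on merged rows in BAT. The part of these cell types in the differences from BAT was not tested.

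The other members depended on the scale. On reads, 8 of 10 members were called, 2 higher and 6 lower in eWAT, where 70.3% of all symbols were called, 35.6% higher and 34.7% lower. Dgat2 was higher on reads (log2 fold change 0.72, edgeR adjusted p = 0.000778) and on RPKM (1.03, limma adjusted p = 3.11e-05), with values of 618, 1055 and 1311 in eWAT above all BAT libraries. On RPKM, 50.4% of all symbols were above all BAT libraries in every eWAT library. With the length offset the log2 fold change was 0.32 and missed the threshold (edgeR adjusted p = 0.0951). Dgat1 had log2 fold changes of −1.02 on reads (edgeR adjusted p = 9.99e-06), −0.02 by limma (adjusted p = 0.91) and −0.72 with the offset (edgeR adjusted p = 0.000454). The ratio of Dgat2 to Dgat1 was 19.7, 22.6 and 29.6 in eWAT, above every BAT library (difference in log2 ratio 1.05, exact permutation test, two-sided, p = 0.0021645, adjusted p = 0.00487). Gpam and Agpat1 were lower on reads (−0.67 and −0.64) and with the offset (−0.56 and −0.66) but not by limma on RPKM, where the signs turned to 0.12 and 0.07. Lpin1 went from −0.43 on reads, a call lost without eWAT replicate 7 or 15 or BAT replicate 6 or 8 (−0.35, −0.30, −0.37 and −0.39), to 0.55 by limma, and Lpin2 from 0.36, not called, to 2.37. Lpin3 was at 0.606, 0.879 and 1.41 RPKM in eWAT and among the 3 scales was called by limma only (log2 fold change 0.73, adjusted p = 0.0135). It was also called with the transcript of highest RPKM (0.66, edgeR adjusted p = 0.0414) and with summed transcripts (1.28, edgeR adjusted p = 0.000348). For the members outside the 3 that met the rule, no direction between eWAT and BAT is given.

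Without TMM scaling the median of all genes moved by 0.26 between iWAT and BAT and by 0.33 between eWAT and BAT on the log2 scale, and the share of calls that were higher in the white depot rose from 50.3% to 65.8% and from 50.6% to 66.3%. By limma on RPKM these shares were 65.2% and 77.9%, and for iWAT against eWAT the share higher in iWAT was 10.2% in place of 52.2%. Limma called 70.7%, 80.4% and 52.6% of all symbols in the comparisons of iWAT with BAT, eWAT with BAT and iWAT with eWAT, and edgeR with the length offset called 73.9% and 52.5% in the 2 with eWAT. At 2-fold, 27.6% were called between eWAT and BAT, where Agpat2, Agpat3 and Mogat1 passed again.

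**Figure D3:**
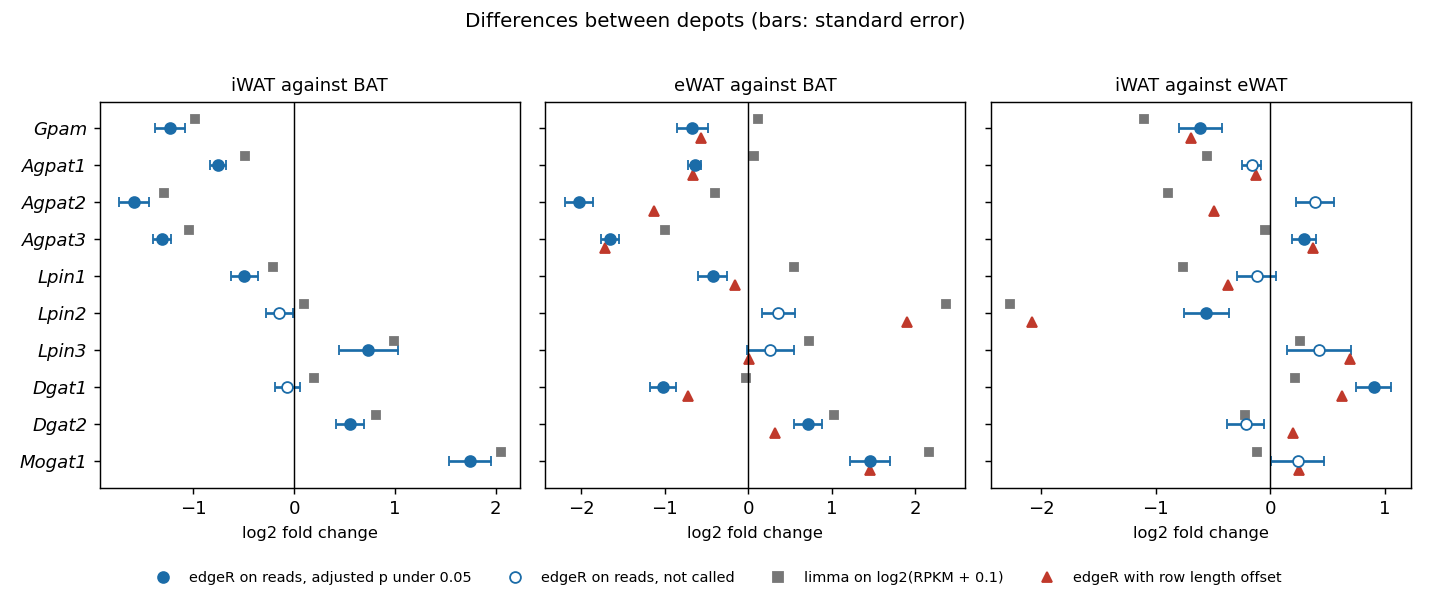
Log2 fold change of each member (horizontal axes) in the 3 comparisons, positive where the depot named first was higher. Circles are edgeR values on reads with standard errors (filled where adjusted p was under 0.05), squares are limma values on log2(RPKM + 0.1), and triangles are edgeR values with row length as an offset. The symbols lie on 1 side of 0 for Agpat2, Agpat3, Lpin3, Dgat2 and Mogat1 in both comparisons with BAT. They lie on both sides for Gpam, Agpat1 and Lpin1 between eWAT and BAT.

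Between the white depots, Gpam and Lpin2 were lower in iWAT than in eWAT on all 3 scales, 2 of 10 members against 13.9% of all symbols. Other choices of eWAT row ended both calls, with Gpam at a log2 fold change of 0.01 for summed transcripts (edgeR adjusted p = 0.971) and Lpin2 at 0.27 for the transcript of highest RPKM (edgeR adjusted p = 0.238). With the replicate number as a block both calls on reads were lost, at −0.56 for Gpam (edgeR adjusted p = 0.0962) and −0.49 for Lpin2 (edgeR adjusted p = 0.122). Without a filter on reads, Lpin2 also missed the threshold (edgeR adjusted p = 0.0537). Some cell type markers also differed in this comparison. Over all symbols, RPKM ranges did not overlap and were lower in iWAT for 30.5% and higher for 1.94%. The summed RPKM of macrophage markers was 31.0 to 162 in iWAT and 164 to 2570 in eWAT. That of mesothelium markers was 3.64 to 4.59 and 14.2 to 29.4, and that of 4 markers of fat cell precursors 1.70 to 7.34 and 11.3 to 25.6. Brown adipocyte markers went the other way, at 78.6 to 122 in iWAT and 12.3 to 24.9 in eWAT, as did adipocyte markers, at 7476 to 10579 and 2718 to 7240. Endothelial, lymphocyte, epididymis and skeletal muscle markers overlapped. The part of these cell types in the differences was not tested. Gpam was at 12.2, 20.6 and 26.1 RPKM in iWAT and 20.7, 46.5 and 56.8 in eWAT, and the ranges met only in eWAT replicate 15. Its log2 fold changes were −0.61 on reads (SE 0.19, edgeR adjusted p = 0.0233), −1.10 by limma (adjusted p = 0.00012) and −0.70 with the offset (edgeR adjusted p = 0.00504), and without eWAT replicate 15 the value on reads was −0.75 (adjusted p = 0.000871). The call on reads was lost without iWAT replicate 13 (−0.58) or eWAT replicate 8 (−0.54). Lpin2 had log2 fold changes of −0.56 on reads (SE 0.20, edgeR adjusted p = 0.0428), −2.27 by limma (adjusted p = 2.93e-09) and −2.08 with the offset (edgeR adjusted p = 7.41e-08). The last 2 scales divide iWAT reads by a merged row 3.86 times as long as the eWAT transcript. On reads, Lpin2 became −0.31 and lost its call (edgeR adjusted p = 0.11) without eWAT replicate 15, where it was highest. This call on reads was also lost without iWAT replicate 12, 13, 14 or 15 (−0.57, −0.53, −0.48 and −0.55) or eWAT replicate 8 (−0.57). On reads alone 4 members were called, against 25.6% of all symbols (13.4% higher and 12.3% lower in iWAT), the others being Dgat1 (0.90, SE 0.15, adjusted p = 0.00035) and Agpat3 (0.30, adjusted p = 0.0442), both higher in iWAT. Dgat1 kept its sign by limma without a call (0.21, adjusted p = 0.262), and Agpat3 turned to −0.05 by limma and to −1.19 with summed transcripts (edgeR adjusted p = 2.51e-08), and lost its call on reads in 9 of 12 fits that each left out 1 library (0.23 to 0.34 over all 12). No member passed the 2-fold test, against 3.44% of all symbols.

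The count of 4 called members depended on single libraries. It was 1 without iWAT replicate 13 or eWAT replicate 8 and 2 without iWAT replicate 14, iWAT replicate 15 or eWAT replicate 15. Dgat2 and Mogat1, the members raised in both white depots against BAT on reads, had log2 fold changes of −0.22 (edgeR adjusted p = 0.359) and 0.24 (adjusted p = 0.489) between iWAT and eWAT.

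In eWAT replicate 15, the library rich in macrophage markers, 9 of the 10 members were at their lowest value of the depot. Dgat2 was at 618 against 944 to 1311 in the other 5 libraries, Agpat2 at 104 against 138 to 218, Gpam at 20.7 against 44.8 to 56.8, and Mogat1 at 7.82 against 15.7 to 22.1. Lpin2 alone was at its highest there, 5.67 against 2.36 to 3.21. Plin1, a coat protein of the adipocyte lipid droplet, was also lowest in this library, at 260.9. Divided by Plin1 of the same library, 7 of the 10 members lay within the range of the other 5, whereas Agpat1, Agpat3 and Lpin2 lay above it. The part of macrophages in these values was not tested.

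**Figure D4:**
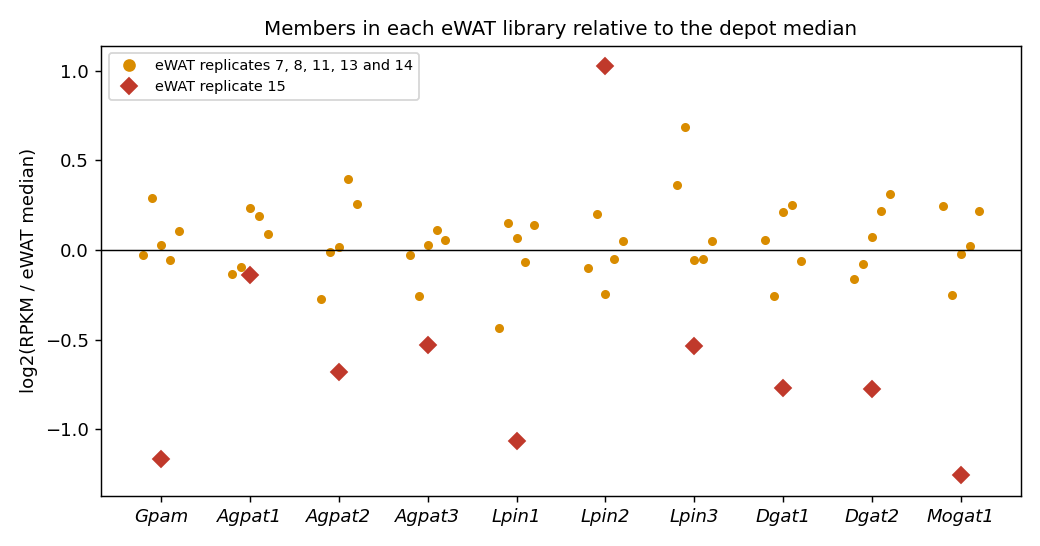
RPKM of each member in each eWAT library relative to the eWAT median (vertical axis, log2 scale). Circles are replicates 7, 8, 11, 13 and 14 and diamonds are replicate 15, which is lowest for every member other than Lpin2 and highest for Lpin2.

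The transcript rows of eWAT resolve an alternative exon of Lpin1. Lipin-1 exists as an alpha form and a longer beta form, which differ by this coding exon. It spans 99 bases on chr12:16577970-16578068 (mm9, minus strand), is exon 6 of 21 in the Ensembl transcript that holds it, and adds 33 codons. It is shown as it is the sequence that the longer form holds and the shorter one lacks, read from the reference genome, 5′ to 3′ on the strand of the gene.
Lpin1 exon: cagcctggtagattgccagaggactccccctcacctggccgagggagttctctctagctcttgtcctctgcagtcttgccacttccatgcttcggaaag
The row with this exon had 87, 129, 99, 86, 110 and 34 reads more than the otherwise equal row without it, in eWAT replicates 7, 8, 11, 13, 14 and 15, or 545 in total. Per kilobase this was 52.2%, 51.3%, 49.0%, 44.8%, 56.5% and 32.4% of the reads on the exons that both rows share. The lowest share was thus in eWAT replicate 15. A 144-base exon held by another Lpin1 transcript had 6.02% to 11.9% of the shared level. How reads that span exon junctions were counted is not given in the sources used here, so the shares are not estimates of isoform abundance, and the merged rows of iWAT and BAT do not resolve the exon.

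**Figure D5:**
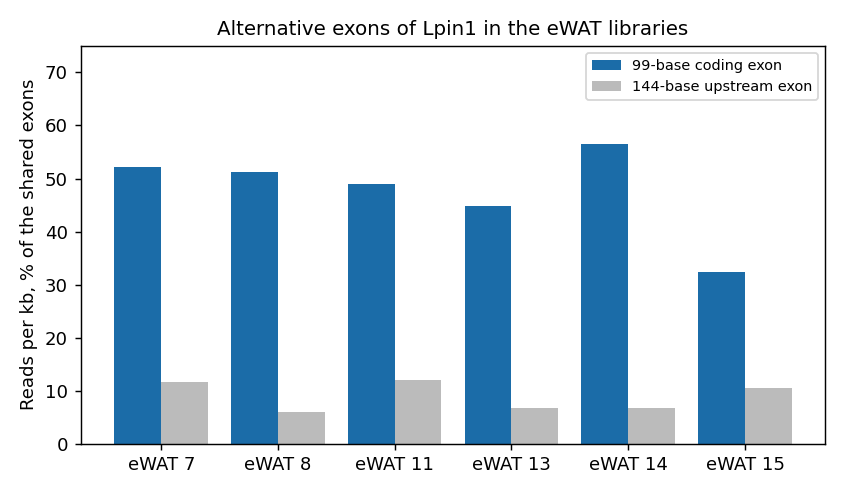
Reads per kilobase on the 99-base coding exon (blue) and on a 144-base upstream exon (gray) of Lpin1 as a percentage of the reads per kilobase on the shared exons (vertical axis, from 0) in each eWAT library. The blue bars lie between 32.4% and 56.5%, the lowest in replicate 15, and the gray bars between 6.02% and 11.9%.

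Pairs of members varied in different ways within depots. After each depot's mean was removed, 11 of the 45 pairs had a negative Pearson r over the 18 libraries, and 21 without eWAT replicate 15, where r ran from −0.59 (Lpin3 and Mogat1) to 0.71 with a median of 0.02. On this scale, log2 RPKM of Agpat2 and Dgat2 had an r of 0.83 over all libraries and 0.71 without eWAT replicate 15, and Gpam and Lpin1 had 0.84 and 0.63. Gpam and Lpin2 went from −0.35 to 0.59 when that library was left out, and Dgat1 and Dgat2 from 0.30 to −0.27. The points share library depth and preparation, so these values are a description. The genes most like Dgat2 over the 12 iWAT and BAT libraries after depot means were removed, among 10442 candidates, were Pxmp3 (r = 0.93), Syt12 (0.92) and Acyp2 (0.91). This measure leaves out the depot levels. The mean RPKM of Pxmp3 was 5.66 in iWAT and 6.90 in BAT and that of Acyp2 24.3 and 42.0, both lower in iWAT, whereas Syt12 (9.28 and 1.71) was higher there, as was Dgat2.

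The surrounding pathway was represented by 39 other genes in 10 lists, of which 36 were tested. Between iWAT and BAT, 13 were higher and 13 lower, or 72.2% called against 67.6% of all genes, with a median log2 fold change of 0.01. The counts for single lists are to be read against the same share. The other glycerol 3-phosphate acyltransferases moved in opposite directions. Agpat9, now named Gpat3, was 8.41-fold higher in iWAT (RPKM 24.9 ± 4.44 against 2.45 ± 0.941, SD, n = 6, edgeR adjusted p = 4.78e-08), whereas Agpat6, now named Gpat4 and singled out after its values were seen, was 1.89-fold lower (32.04 ± 2.05 against 50.3 ± 3.46, edgeR adjusted p = 4.11e-08). Of 5 genes for glycerol 3-phosphate supply, 3 were lower and 1 higher, and Gyk, the glycerol kinase, was 11.5-fold lower in iWAT (1.42 ± 0.151 against 13.5 ± 5.40, edgeR adjusted p = 1.05e-08). Of 3 other phosphatidate phosphatases, 2 were higher, among them Ppap2b at 4.28-fold (65.9 ± 7.83 against 12.8 ± 2.20, edgeR adjusted p = 9.60e-10). Of 4 acyl-CoA synthetases tested, 1 was higher and 2 lower, and Acsl5 was 6.36-fold lower (5.93 ± 0.333 against 30.9 ± 13.6, edgeR adjusted p = 5.22e-07).

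Of the 7 transcriptional regulators, 3 were higher and 3 lower in iWAT than in BAT. Ppara, the fatty acid receptor that drives oxidation genes, was 16.7-fold lower (3.26 ± 0.643 against 45.7 ± 9.03, edgeR adjusted p = 6.86e-11), and Cebpa was 1.5-fold higher (305 ± 46.1 against 168 ± 31.9, edgeR adjusted p = 0.00123). Of 7 genes that lead from the pathway to phospholipids, 3 were higher and 3 lower. Neither lipin regulator was higher and 1 was lower, 1 of 2 droplet assembly genes was higher, and 0 of 3 other acylglycerol phosphate acyltransferases were called. Mogat2, the relative of Mogat1, was 6.54-fold higher in iWAT (1.98 ± 0.640 against 0.248 ± 0.0977, edgeR adjusted p = 1.35e-06) and was named after its values were seen.

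Against BAT, eWAT had 11 of the 36 genes higher and 16 lower on reads, or 75% called against 70.3% of all symbols. Agpat9 (log2 fold change 2.83), Ppap2b (1.91) and Cept1 (0.53) were the largest increases and Ppara (−5.16), Gyk (−3.47) and Mlxipl, which encodes the carbohydrate response factor ChREBP, (−3.21) the largest decreases that the naming rule picked, and all 6 had the same sign and passed by limma and with the length offset as well. Between iWAT and eWAT, 10 were higher and 3 lower in iWAT on reads, or 36.1% called against 25.6% of all symbols. Acsl1 (0.89), Srebf1 (0.67) and Pck1 (0.66) were the largest increases so picked, but none was called on RPKM in that direction, and Acsl1 turned to −0.55 by limma. Mogat2 was lower in iWAT than in eWAT by limma (−1.95) and with the offset (−1.53) as on reads (−1.88, edgeR adjusted p = 1.00e-05).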

How the data were processed

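RNA-seq was analyzed in 6 iWAT adipocyte, 6 eWAT adipocyte and 6 BAT tissue libraries, prepared with the NEBNext Ultra kit. The paper states that the Genomatix Genome Analyzer was used with mm9, and the submitters' processing notes name cutadapt 1.16 and HISAT2 2.1.0. The counting rule is not given in the sources used here. The authors deposited raw read counts for every row, together with an RPKM that equals the count over the row's length and the library's total. Files hold 53445 merged genes (iWAT, BAT) or 189660 transcripts (eWAT), where a read can count on several transcripts. Intervals of counts would cover counting error only, as reads were not collapsed by molecular identifiers.

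Members, lists and tests were chosen with earlier results of these data known. Rows were matched by symbol. In eWAT the most-read transcript was taken, a choice that raises eWAT counts. Genes with at least 10 reads in at least 6 libraries were tested with edgeR 4.0.16 (glmQLFit and glmQLFTest, TMM, totals behind the RPKM) in R 4.3.3, iWAT against BAT on the 12 libraries alone and the others on all 18. The threshold was a Benjamini-Hochberg adjusted p of 0.05. SEs were derived from the F statistic. Simulated counts for iWAT against BAT over 19733 genes gave calls for 72 of 100 genes changed 2-fold, 96 of 100 changed 4-fold and 6 of 19533 unchanged ones. For eWAT against BAT over 18383 symbols these were 61, 92 and 9 of 18183. Unchanged rows were simulated with 1 mean for all depots, without the difference between merged and transcript rows. The counts therefore do not measure the error of the real comparisons, where 67.6% and 70.3% of rows were called. Ratios of isoenzymes were compared with exact permutation tests (scipy 1.17.1).

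The alternatives were DESeq2 1.42.0, limma 3.58.1 on log2(RPKM + 0.1) or with a pseudocount of 1 (fold changes on this scale understate those of low genes), no TMM, other filters, a test of 2-fold change, other eWAT rows, libraries left out and the title number as a block. The row length offset was added after seeing the data. Title numbers recur across depots, with 4 or 5 shared in each comparison, and the labels do not say what the number marks. The deviations of libraries with the same title number had correlations of -0.307 to 0.114. So few pairs cannot settle whether the depots were paired. The number was not used as a pairing in the main tests, and the ratio tests were not run with it as a block. The labels do not say that each library came from a separate mouse, so p-values measure the spread between these libraries, which may be in part technical. Other genes named are the 3 with the largest change in each direction in each comparison among called genes of 10 other pathway lists whose higher depot averaged an RPKM of 10 or more, and the 3 most like the highest member. Start and end coordinates of 94.8% of 54051 Ensembl transcripts in the eWAT files equaled GENCODE vM1 on NCBIM37, from which the Lpin1 exon was read.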

Additional observations from a re-analysis of the deposited data

Results flagged for a closer look

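Among 39 sets of 6 libraries tested for a single library standing apart with Dixon's ratio, for which chance gives about 1.95, 2 stood out, both in eWAT replicate 15. Gpam was lowest there, at an RPKM of 20.7 against 44.8 to 56.8 in the other 5 eWAT libraries. Lpin2 was highest there, at 5.67 against 2.36 to 3.21. This library also had the highest summed macrophage markers of the depot (2570) and the lowest summed adipocyte markers (2718), and their part in the 2 values was not tested.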

How the results depend on the processing

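Across the alternatives for single members in the 3 comparisons, 193, 201 and 185 values kept their direction and side of the threshold for iWAT against BAT, eWAT against BAT and iWAT against eWAT, and 7, 8 and 15 changed sign. With no change of sign, a call was lost in 19, 21 and 30 values and gained in 0, 9 and 10. The cause of these changes was not tested. With a 2-fold minimum the number of called members fell from 8 to 3 against BAT (both white depots) and from 4 to 0 between iWAT and eWAT. That last count was 1 with the replicate block, 2 without a filter, 2 without eWAT replicates 14 and 15 and BAT replicate 12, and 1 to 4 when each library was left out. Calls over all symbols fell from 4714 to 3153, 4442 and 3377 with the block, no filter and those libraries removed. The block gave 6 calls in each comparison with BAT. The number of members called stayed within 1.5 times under the other alternatives run.

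Between iWAT and BAT, Dgat1 changed sign with the replicate block (0.051), without TMM (0.19) and by limma with a pseudocount of 0.1 (0.19) or 1 (0.19), and Lpin2 without TMM (0.11) and by limma (0.097 and 0.041). Between eWAT and BAT, limma turned Gpam (0.12 and 0.12), Agpat1 (0.070 and 0.068) and Lpin1 (0.55 and 0.54), the transcript of highest RPKM turned Lpin2 (-0.43), and the sum of transcripts turned Lpin1 (0.40). Between iWAT and eWAT, limma turned Agpat2 (-0.90 and -0.89), Agpat3 (-0.050 and -0.048) and Mogat1 (-0.12 and -0.11), the transcript of highest RPKM turned Lpin1 (1.93) and Lpin2 (0.27), the sum of transcripts turned Gpam (0.0083), Agpat2 (-0.26), Agpat3 (-1.19), Lpin3 (-0.57) and Mogat1 (-0.36), and the length offset turned Agpat2 (-0.49) and Dgat2 (0.20).

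The log2 ratio of Agpat2 to Agpat1 between iWAT and eWAT was -0.34 on RPKM (not called), 0.58 on reads, -0.64 with the transcript of highest RPKM and -0.40 without the 3 libraries, the last 3 called. Between eWAT and BAT it was -0.47, and it lost its call with the transcript of highest RPKM (-0.16) and without the 3 libraries (-0.43). Dgat2 over Dgat1 between iWAT and eWAT went from -0.43 (not called) to -1.12 on reads. On RPKM, Lpin1 over Lpin2 was -2.03 (eWAT against BAT) and 1.70 (iWAT against eWAT), and on reads -0.75 and 0.42, neither called. Between iWAT and BAT the Lpin1 ratio was not called (-0.33).

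Over all symbols the calls for iWAT against eWAT rose from 4714 to 9661 and 9507 by limma, 10523 with the transcript of highest RPKM, 13584 with the sum and 9649 with the offset, and were 633 at 2-fold. The 2-fold minimum left 4427 calls of 13337 for iWAT against BAT and 5074 of 12917 for eWAT against BAT. Rows identical in both kinds of file, which gave 3590, 3888 and 737 calls, hold no member.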
